A study of Mus musculus with 4 samples.

Results

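The miRNAs described here are 6 that are known chiefly from microglia, the resident macrophages of nervous tissue, and from white blood cells: mmu-miR-142-3p, mmu-miR-142-5p, mmu-miR-146a, mmu-miR-150, mmu-miR-155 and mmu-miR-223, written below without the mouse prefix. They were taken by name from the 566 mouse miRNA probes of a nanoString nCounter panel, and each was set against the negative control probes of its own lane. On this panel a tag is ligated to each miRNA and the tagged molecules are then counted through barcoded probes. It was run on 4 pools of retinal cells sorted by flow cytometry for tdTomato, which is expressed once Cre has removed a stop cassette.

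The first library, P2 RPC or P2 progenitors, held retinal progenitor cells of postnatal day 2, labelled through Sox2-CreER and pooled from 8 retinas. The other libraries held Müller glia (MG), the radial glia of the retina, labelled through Rlbp-CreER. P8 MG came from 52 retinas of day 8, P11 MG from 32 retinas of day 11 and adult MG from 40 adult retinas. All mice carried the floxed-stop tdTomato allele and received tamoxifen at 75 mg/kg on consecutive days, on days 0 and 1 for P2 RPC, 6 and 7 for P8 MG, 9 and 10 for P11 MG and after day 21 for adult MG. The series text calls the pool of 8 retinas adult, whereas every label of that sample gives P2. The title of the P11 library leaves its age open by a day. There was 1 library per group, hence no replicate to check a difference against, and p-values are left out. Cre line, cell type, age, number of retinas and lane differ together between P2 RPC and the glia, and age, retinas and lane among the glia, so they cannot be told apart. In such bulk pools fewer cells of a type and less RNA per cell cannot be told apart either.

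Microglia derive from yolk sac myeloid progenitors and settle in the retina before birth. They are a separate lineage from progenitors, neurons and Müller glia, and the Cre lines used here are not drivers of that lineage. miR-142 is made in all blood lineages and is a common mark of them. miR-146a is induced by NF-κB and dampens Toll-like receptor signalling through Traf6 and Irak1, and it is also made outside blood cells. miR-150 is abundant in mature lymphocytes and targets Myb, miR-155 is induced when macrophages and lymphocytes are activated, and miR-223 belongs to granulocytes and other myeloid cells.

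The mature sequences are shown so that the members can be compared with each other. Whether a probe also reads another miRNA was not tested. They are RefSeq sequences of build GRCm38.p6, found for 5 of the 6 members, all but miR-150, with the seed (bases 2 to 8) in capitals.
miR-142-3p: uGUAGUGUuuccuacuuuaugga
miR-142-5p: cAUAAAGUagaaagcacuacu
miR-146a: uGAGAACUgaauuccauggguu
miR-146b: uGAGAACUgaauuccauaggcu
miR-155: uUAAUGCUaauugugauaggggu
miR-223: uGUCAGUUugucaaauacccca

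No seed was shared among these 5 members. Of them only miR-146a shared its seed with another mature miRNA among the 1738 in the table, miR-146b, which is therefore printed with it. Both are 22 bases long and identical at 20, the differences being G18A and U21C (miR-146a base, position from the 5′ end, miR-146b base). The probe names without an arm were read as the 5p arm for miR-146a, miR-146b, miR-150 and miR-155 and as the 3p arm for miR-223.

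The arms of miR-142 share a hairpin, at chr11:87756864-87756927 on the plus strand, with the annotated miRNA gene Mir142b on the opposite strand over it. It is shown whole with the 5p arm (first) and the 3p arm (second) in capitals, since both arms were measured and differed across the libraries.
Mir142: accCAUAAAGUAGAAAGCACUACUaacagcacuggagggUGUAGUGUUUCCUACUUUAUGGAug

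Mature miR-142-5p is at chr11:87756867-87756887 and miR-142-3p at chr11:87756903-87756925. Mature miR-146a is at chr11:43374435-43374456 (minus strand), with no other annotated gene over it. miR-155 is at chr16:84714143-84714165 (plus strand) within its host transcript Mir155hg, and miR-223 at chrX:96242884-96242905 (plus strand) within the long non-coding RNA F630028O10Rik.

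Across the libraries, 4 of the 6 members stood above background in at least 1, and miR-155 and miR-223 in none. The glial libraries each had 4 members above background and P2 RPC had 1. Under other background rules P11 MG and adult MG had as few as 3, and P2 RPC had as many as 4. miR-146a and miR-142-3p were high in the young glia, P8 MG and P11 MG, and low in both P2 RPC and adult MG. miR-142-5p was above background throughout, and miR-150 stood at 1.13 to 2.02 times it in the glia. The background threshold was set 2 SD above the average of the lane's 8 negative controls and came to 60.7 raw counts in P2 progenitors, 137 in P8 glia, 106 in P11 glia and 71.7 in adult glia. Over the whole panel, 38.9% of the 566 mouse miRNA probes stood above it in P2 progenitors, 23.7% in P8 glia, 26.3% in P11 glia and 30.2% in adult glia. The lanes held 576117 to 769736 counts in all and 470304 to 695390 on mouse miRNA probes.

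All members were weak. Their summed raw counts were 328 in P2 progenitors, 1224 in P8 glia, 1211 in P11 glia and 595 in adult glia, which is 0.0680%, 0.260%, 0.250% and 0.0856% of the miRNA counts of those lanes, background included. The threshold itself was worth 0.0126% of miRNA counts in P2 progenitors, 0.0292% in P8 glia, 0.0218% in P11 glia and 0.0103% in adult glia.

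**Figure D1:**
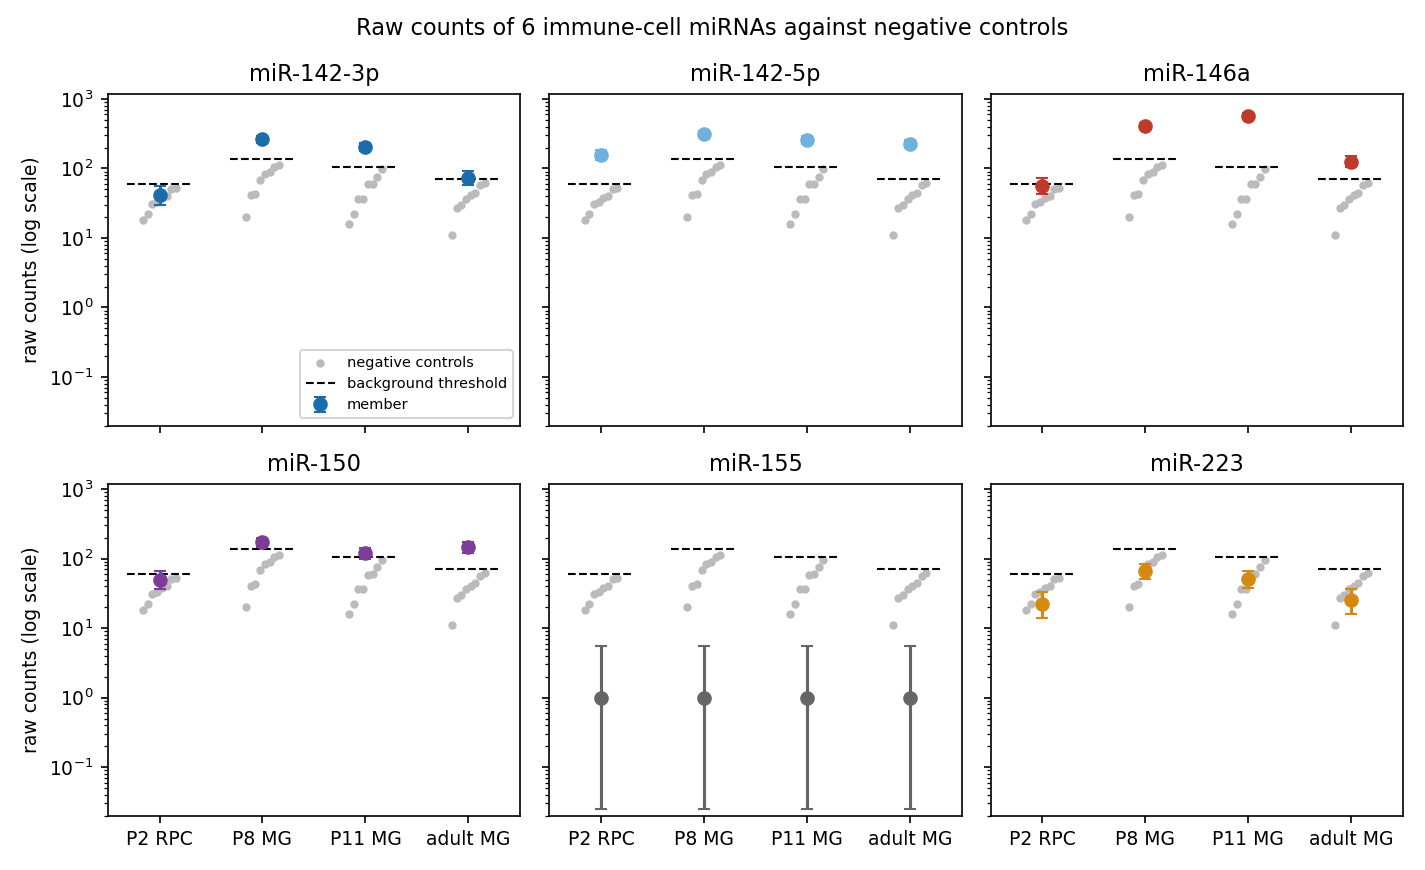
Raw counts (log axis) of each member in the 4 libraries, with exact 95% Poisson intervals that cover counting error only; grey points are the 8 negative controls of the lane and dashed lines the background threshold. miR-146a reaches 576 in P11 MG against a threshold of 106, miR-223 lies among the negative controls in every lane, and miR-155 stands at 1 count in all 4.

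miR-146a gave the highest count of any member probe. It had 56 raw counts in P2 progenitors, 407 in P8 glia, 576 in P11 glia and 125 in adult glia. Both young glial libraries were well clear of background, at 2.97 times the threshold in P8 MG and 5.45 times in P11 MG. Adult MG was above it too, at 1.74 times, and P2 RPC was below it. In P11 MG miR-146a ranked 51st of the 566 probes and made up 0.119% of miRNA counts (exact binomial 95% interval 0.109% to 0.129%, counting error only, as for all intervals here).

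For ratios, lanes were scaled by their positive controls and then by the 100 most abundant miRNA probes, and counts not above background were replaced by the threshold, which makes the ratio a bound. On that scale miR-146a had 376 normalized counts (341 to 415) in P8 MG, 624 (574 to 677) in P11 MG and 144 (119 to 171) in adult MG. It was at least 6.86-fold higher in P8 MG and at least 11.4-fold higher in P11 MG than in P2 RPC, calls that held under all 8 other scalings with bounds down to 3.37-fold and 6.14-fold. P11 MG was 1.66-fold higher (1.46 to 1.89) than P8 MG, a difference beyond counting error that stayed under the 2-fold threshold used for calls.

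Adult MG then had less miR-146a than either young glial library. It was 4.35-fold lower (3.58 to 5.32) than P11 MG and 2.62-fold lower (2.14 to 3.23) than P8 MG, and at least 2.62-fold higher than P2 RPC. The difference between adult MG and P11 MG passed 2-fold under the same 8 scalings, between 3.10-fold and 6.62-fold lower. That between adult MG and P8 MG was lost when lanes were scaled on housekeeping mRNAs, with 1.73-fold lower as its smallest value. The call against P2 RPC was lost on total counts and on the geometric mean of the housekeeping mRNAs, down to 1.43-fold.

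miR-146b, the near-identical paralogue, was weak in every library. It had 54 raw counts in P2 progenitors, 133 in P8 glia, 88 in P11 glia and 87 in adult glia, above background in adult MG alone at 1.21 times the threshold. In P8 MG it lay just below, at 0.969 times, with more normalized counts than in adult MG (123 against 99.9). In P11 MG, where the miR-146a probe read 576, the miR-146b probe read 88 and lay below the threshold.

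miR-142-3p had 42 raw counts in P2 progenitors, 262 in P8 glia, 205 in P11 glia and 73 in adult glia. The young glia were again the high libraries, at 1.91 and 1.94 times the threshold in P8 MG and P11 MG. Adult MG was only 1.02 times the threshold, and P2 RPC lay below 2 of its 8 negative controls. Between the young glial libraries the ratio of P11 MG to P8 MG was 0.917 (0.760 to 1.10), not distinguishable by counting error.

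Scaled, miR-142-3p was at least 4.42-fold higher in P8 MG and at least 4.05-fold higher in P11 MG than in P2 RPC, and both calls held under all 8 other scalings, with bounds down to 2.17-fold and 2.18-fold. The adult library was 2.89-fold lower (2.22 to 3.80) than P8 MG and 2.65-fold lower (2.02 to 3.51) than P11 MG. Scaling on the geometric mean of the housekeeping mRNAs took both below 2-fold, the ratio to P8 MG to 1.91-fold lower. The ligation controls also took the ratio to P11 MG below it, to 1.89-fold lower. Adult MG was not called against P2 RPC, with a bound of at least 1.53-fold higher.

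miR-142-5p, cut from the same hairpin, was the only member above background in P2 RPC. It had 157 raw counts in P2 progenitors, 315 in P8 glia, 259 in P11 glia and 226 in adult glia, from 2.30 to 3.15 times the threshold. In normalized counts these were 142 (121 to 166), 291 (260 to 325), 281 (248 to 317) and 260 (227 to 296). The 3 glial libraries therefore overlapped in their counting intervals and P2 RPC lay below them.

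P8 MG was called higher than P2 RPC for miR-142-5p at 2.05-fold (1.69 to 2.50), just past the threshold, and P11 MG, at 1.98-fold (1.62 to 2.43), and adult MG, at 1.83-fold (1.49 to 2.26), were not. The P8 MG call was lost under 5 of the 8 other scalings, where the ratio went down to 1.01. Adult MG had 0.891 (0.748 to 1.06) of the P8 MG level, a log2 ratio of -0.17. It was -1.04 on total counts, where the call would be lower, and 0.43 on the geometric mean of the housekeeping mRNAs. In the authors' deposited table, which takes more background off and scales on housekeeping mRNAs, the scores for miR-142-5p were 86 in P2 progenitors, 111 in P8 glia, 124 in P11 glia and 184 in adult glia, so there the adult library was the highest.

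The 2 arms differed in how they varied. The raw ratio of the 3p to the 5p arm was 0.832 (0.703 to 0.983) in P8 glia, 0.792 (0.656 to 0.954) in P11 glia and 0.323 (0.245 to 0.422) in adult glia. In P2 progenitors, where the 3p arm was not above background, it was at most 0.386 (upper limit 0.525) with the threshold in place of the 3p count. The intervals of the young glia lay above that limit and above the interval of adult MG, in which the 3p arm only just passed the threshold. This ratio is taken within a lane, so no scaling enters it. With the mean of the negative controls taken off both arms it was 0.783 in P8 glia, 0.741 in P11 glia and 0.183 in adult glia, and at most 0.206 in P2 progenitors. Counts of different probes also carry their own efficiencies, so the ratio shows how the arms varied between lanes and not which arm was more abundant.

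miR-150 had 50 raw counts in P2 progenitors, 173 in P8 glia, 119 in P11 glia and 145 in adult glia. It was below background in P2 RPC and stood at 1.26, 1.13 and 2.02 times the threshold in the glia. By this multiple its order among the glia differed from that of miR-146a and miR-142-3p, with adult MG, whose threshold was the lowest of these, first. Its share of miRNA counts was 0.0368%, 0.0246% and 0.0209% from P8 MG to adult MG, the same order as for miR-142-3p. Normalized counts were 160 (137 to 186) in P8 MG, 129 (107 to 154) in P11 MG and 166 (140 to 196) in adult MG, whose intervals overlap. The ratio of adult MG to P11 MG was 1.29 (1.01 to 1.66), at the edge of counting error. On total counts, alone among the scalings, the adult library was the lower, with log2 ratios of -0.82 to P8 MG and -0.24 to P11 MG.

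miR-150 was at least 2.92-fold higher in P8 MG, at least 2.35-fold in P11 MG and at least 3.04-fold in adult MG than in P2 RPC. The thresholds alone gave 2.31-fold for P8 MG and 2.09-fold for P11 MG, so those calls followed from its being above background there. The P11 MG call held under 3 of the 8 other scalings, that of P8 MG under 6 and that of adult MG under 7, with bounds down to 1.27-fold, 1.43-fold and 1.66-fold. With background set at the mean plus 3 SD, or at the mean plus 2 SD of the viral probes, the P11 MG call was lost. In the authors' deposited table miR-150 had a score of 76 in adult MG, 2 in P8 MG and the floor value of 1 in the other libraries.

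miR-223 had 22 raw counts in P2 progenitors, 66 in P8 glia, 51 in P11 glia and 25 in adult glia. These counts lay within the range of the negative controls of each lane, from 0.349 to 0.482 times the threshold, so the myeloid miRNA was not detected above background in any library. miR-155 read 1 raw count in all 4 libraries, below every negative control, the lowest of which read 11. Among the 566 mouse miRNA probes 2 stood at 1 in every library, the other being miR-34c. A probe that reads less than the negative controls shows less than the usual background, and whether it could have detected its target was not tested.

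**Figure D2:**
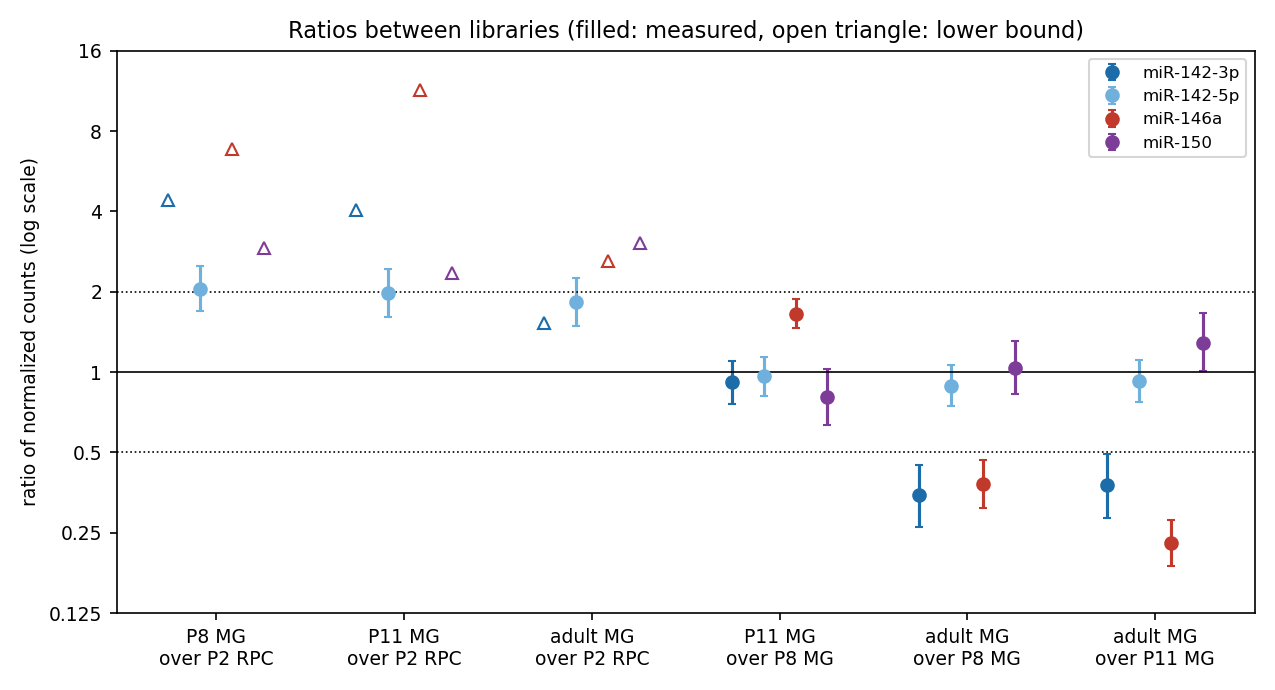
Ratios of normalized counts (log axis) of the 4 detected members in 6 library pairs; filled points are measured with 95% counting intervals, open triangles are lower bounds against a P2 RPC count at background, and dotted lines mark 2-fold. miR-146a and miR-142-3p lie above 4 in P8 MG and P11 MG over P2 RPC and below 0.5 in adult MG over either young glial library, whereas miR-142-5p and miR-150 lie near 1 among the glia.

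By pair, the members were counted among the miRNA probes above background in either library. Against P2 RPC, miR-146a, miR-142-3p and miR-150 came into that count only through the glia, so higher was the only call open to them there and their number is a description. In P8 MG over P2 RPC 4 were called higher, 3 of them as bounds, where 12.7% of 229 probes were called higher and 9.17% lower. In P11 MG over P2 RPC 3 were, all as bounds, where 17.7% of 232 probes were higher and 10.3% lower. In adult MG over P2 RPC 2 were, both as bounds, where 20.7% of 242 probes were higher and 16.5% lower. These pairs share the P2 RPC library.

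Among the glia no member was called in P11 MG over P8 MG, where 2.55% of 157 probes were higher and 6.37% lower. The median log2 ratio of the 4 detected members was -0.09, beside 0.00 over those 157 probes. In adult MG over P8 MG 2 of 4 were lower, where 17.2% of 180 probes were, with median log2 ratios of -0.78 and -0.26. The same 2, miR-142-3p and miR-146a, were lower in adult MG over P11 MG, where 12.3% of 179 probes were. The median log2 ratios there were -0.76 and -0.17. These last pairs share the adult library. No member was higher in either, where 15% and 12.8% of probes were.

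The lanes also differed in background, which was highest in P8 MG, so the raw ratios of the 8 negative controls and the 33 viral miRNA probes are set beside those of the members. Negative controls averaged 35.8 raw counts in P2 progenitors, 70.5 in P8 glia, 50.4 in P11 glia and 38.6 in adult glia. Against P2 RPC, where 3 of the 4 members were not above background, the raw ratios hold background in both libraries and are no measured folds. In P8 MG over P2 RPC the viral probes had a median of 1.66 and reached 3.50, and the negative controls reached 3. miR-146a, at 7.27, and miR-142-3p, at 6.24, were above these values, and miR-150, at 3.46, and miR-142-5p, at 2.01, were not. In P11 MG over P2 RPC the viral probes reached 2.05, below miR-146a (10.3), miR-142-3p (4.88) and miR-150 (2.38) and above miR-142-5p (1.65). In adult MG over P2 RPC they reached 2.39, so that miR-146a, at 2.23 and called higher, lay within the range and miR-150, at 2.90, above it.

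For adult MG over P11 MG, the viral probes had a median raw ratio of 0.720 and went down to 0.522, and the negative controls went down to 0.423. miR-146a, at 0.217, and miR-142-3p, at 0.356, lay below both. Against P8 MG the viral probes went down to 0.257, and miR-146a, at 0.307, and miR-142-3p, at 0.279, were within their range and below that of the negative controls, which went down to 0.387. With the mean of the negative controls taken off before the ratio, adult MG was lower than P8 MG by 4.49-fold for miR-142-3p and 3.14-fold for miR-146a, and than P11 MG by 4.25-fold and 5.74-fold.

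**Figure D3:**
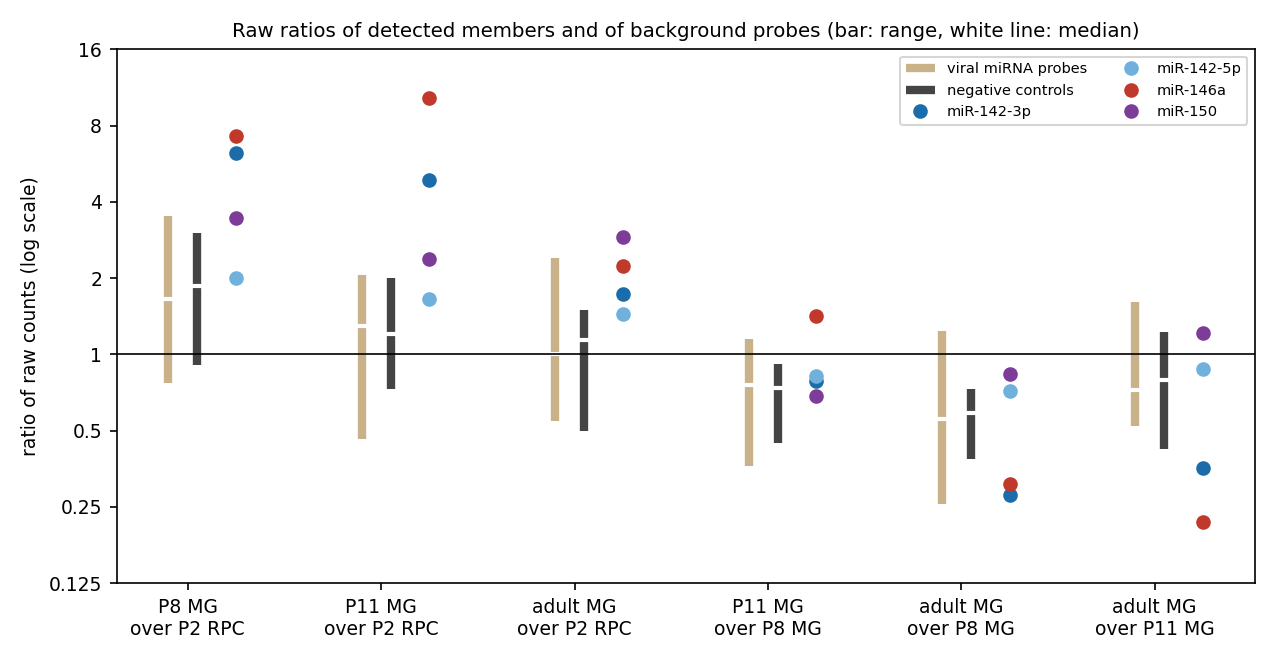
Ratios of raw counts (log axis) of the 4 detected members (points) beside the range (bars) and median (white lines) of 33 viral miRNA probes and 8 negative controls, in 6 library pairs. miR-146a and miR-142-3p lie above both ranges in P8 MG and P11 MG over P2 RPC and below both in adult MG over P11 MG.

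Each detected member was also set against the other probes by the distance between log2 profiles over the 4 libraries, each centred on its own mean, among 141 probes above background in at least 3 libraries. The probe nearest to miR-142-3p was miR-146a, and that nearest to miR-146a was miR-142-3p, at a distance of 0.81 where the median distance was 2.45 and 2.96. Next to miR-142-3p came miR-2141 (1.06) and miR-709 (1.14), and next to miR-146a miR-322 (1.70) and miR-709 (1.76). miR-142-5p was nearest to miR-202-5p (0.18), miR-24 (0.22) and miR-1952 (0.25), which had at most 162 raw counts in any lane. In P8 MG miR-202-5p (120 raw counts) and miR-1952 (126) lay below the threshold of 137, so these profiles were close to background. miR-150 was nearest to miR-505 (0.30), miR-129-3p (0.37) and miR-24 (0.57). Counts below background entered as they were, and with 4 libraries these distances describe the profiles only.

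Of 11 other miRNAs with roles in immune cells, 4 were above background in P2 RPC, P8 MG and P11 MG and 5 in adult MG. On the scale used here none was called in any of the 6 pairs, in which 2.55% to 20.7% of probes were called in a direction, so with so few measured the count says little. miR-342-3p was the strongest of these probes, with 1897 raw counts in P2 progenitors, 1453 in P8 glia, 1870 in P11 glia and 2156 in adult glia. Its ratio of adult MG to P8 MG was 1.84 and passed 2-fold under 5 of the 8 other scalings, up to 2.79, the opposite direction to miR-146a and miR-142-3p. miR-21, which rises in activated macrophages and in many stressed cells, had 578, 662, 613 and 349 raw counts from P2 RPC to adult MG. Its normalized count in adult MG was 1.66-fold lower (1.45 to 1.90) than in P11 MG. On total counts adult MG was called lower in miR-21, by 2.52-fold than P11 MG and by 2.80-fold than P8 MG, and under the other 7 scalings it was not. miR-181c, a lymphoid and neural miRNA, had 327 to 496 raw counts, and miR-132 116 to 141. miR-511, made from the macrophage mannose receptor gene, had at most 35 counts and stayed below background, as did miR-147, miR-212, miR-342-5p, miR-221 and miR-222.

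Markers of other cells that a retinal sort could hold were measured too. The 3 red blood cell miRNAs (miR-451, miR-144 and miR-486) were below background in all libraries, with summed raw counts of 50 in P2 progenitors, 95 in P8 glia, 83 in P11 glia and 77 in adult glia, or 0.0104%, 0.0202%, 0.0171% and 0.0111% of miRNA counts. Of the endothelial pair, miR-126-3p was above background throughout, with 340 raw counts in P2 progenitors, 462 in P8 glia, 360 in P11 glia and 208 in adult glia, and miR-126-5p in none. The pair made up 0.0767%, 0.106%, 0.0799% and 0.0337% of miRNA counts from P2 RPC to adult MG. The summed shares of both lists, like that of the members, were highest in P8 MG, whose background was also highest. For the red blood cell list the share came from counts below background. Its normalized sums differed little among the glia, at 87.9, 89.9 and 88.4 from P8 MG to adult MG. Normalized, the members summed to more in P11 MG (1312) than in P8 MG (1132), whereas the endothelial pair summed to less (419 against 460). Normalized miR-126-3p in adult MG was 1.79-fold lower (1.52 to 2.12) than in P8 MG and 1.63-fold lower (1.37 to 1.95) than in P11 MG, the same direction as miR-146a and miR-142-3p. Under the 8 other scalings it was 1.18-fold to 3.28-fold lower than in P8 MG and 1.17-fold to 2.49-fold lower than in P11 MG. Both were called on total counts only. Of 5 mural and mesenchymal miRNAs 1, miR-199a-3p, was above background in P2 RPC, with 77 raw counts, and none was in the glia. In P8 MG miR-199a-3p had 137 raw counts, just under the threshold of 137.2. This list made up 0.0450%, 0.0861%, 0.0469% and 0.0259% of miRNA counts from P2 RPC to adult MG, also highest in P8 MG. The part of such cells in the members' counts was not tested.

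The sorted cells were also described by 8 miRNAs abundant in Müller glia, a list chosen with earlier results of these data known and so no independent check of the label. All 8 were above background in every library and made up 27.9% of miRNA counts in P2 progenitors, 49.3% in P8 glia, 57.0% in P11 glia and 70.2% in adult glia. miR-204 gave 247414 of their 488175 raw counts in adult MG, and miR-125a-5p went the other way, with 9841 raw counts in P2 progenitors and 4921 in adult glia. miR-9 was highest in P8 MG. It had 63981 raw counts in P2 progenitors, 100674 in P8 glia, 89452 in P11 glia and 65337 in adult glia. The photoreceptor miRNAs miR-182, miR-183 and miR-96, from 1 cluster, made up 4.65%, 1.28%, 0.262% and 0.0975% from P2 RPC to adult MG. The 8 probes of the progenitor list made up 14.5%, 4.48%, 1.66% and 0.450%. The 5 of the neuronal list made up 1.61%, 0.826%, 0.359% and 0.239%, of which miR-124 was most, with 7015 of 7783 raw counts in P2 RPC. miR-129-3p of that list went the other way and was called 3.37-fold higher in P8 MG, 2.62-fold in P11 MG and 2.63-fold in adult MG than in P2 RPC.

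**Figure D4:**
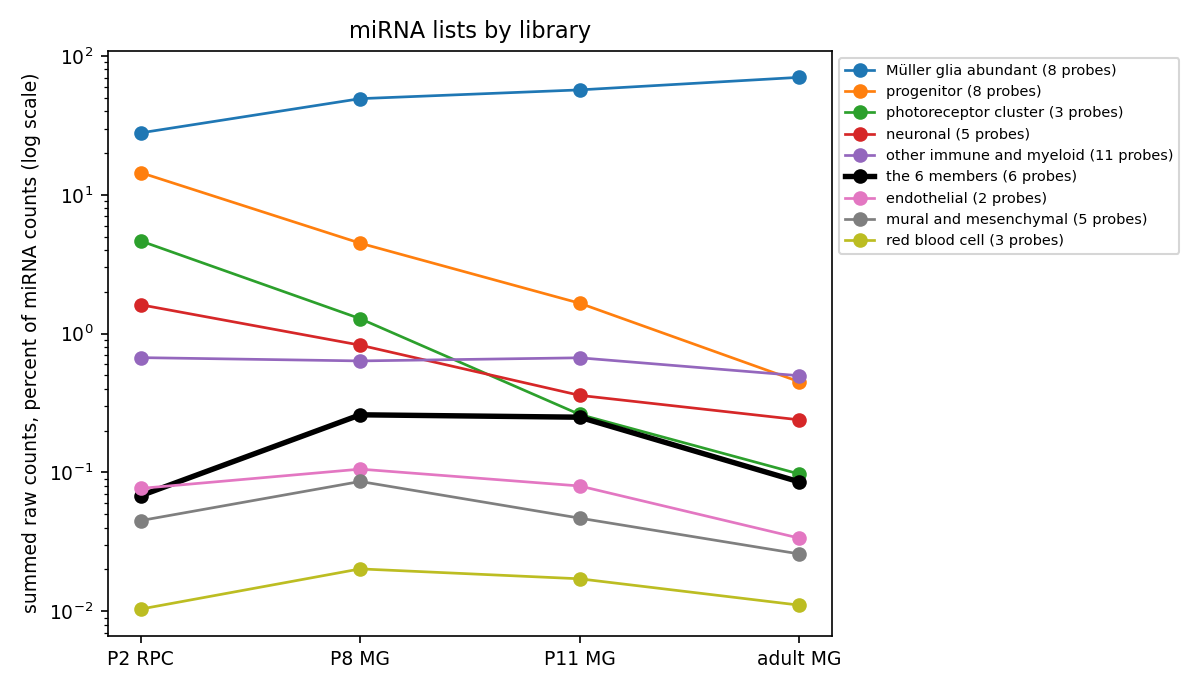
Summed raw counts of each miRNA list as a percent of miRNA counts (log axis) in the 4 libraries, background included. The 6 members (black) lie at 0.0680% in P2 progenitors, 0.260% in P8 glia, 0.250% in P11 glia and 0.0856% in adult glia, while the list abundant in Müller glia is higher in each later library.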

How the data were processed

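The authors deposited raw counts for 626 probes in 4 lanes, as whole numbers, and the file headers record no processing of them. Their second deposited table, treated as a score, has no stated steps. Setting it against the raw counts showed that, for 603 of 603 mouse, viral and housekeeping probes in each lane, the score equals the count reduced by the negative-control mean and 3 SD, times 1 factor per lane (1.03, 0.771, 0.989 and 1.34 from P2 RPC to adult MG), floored at 1, to within 1 unit or 1%. The software that made it is not given in the sources used here.

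Ratios were computed from the raw counts, scaled by the geometric mean of the 6 positive controls and of the 100 most abundant miRNA probes (factors 0.904, 0.925, 1.08 and 1.15). A miRNA was called when above background in the higher library, with a ratio of at least 2 and an exact conditional binomial 95% interval excluding 1. Intervals cover counting error only, and groups of 1 library allow no test. The background threshold rests instead on the spread among the 8 negative controls of a lane. Where it replaced a count, the interval treats it as a count. Named miRNAs were the 6 members, their paralogue, the 3 nearest profiles and list members, of which those at 3 or more times background were preferred and others named as examples. The members and lists were chosen with earlier results of these data known. Alternatives were 6 background rules, 8 scalings (among them edgeR 4.0.16 TMM factors), subtraction of the negative-control mean, fold thresholds of 1.5 and 3 and the authors' scores. Python 3.11.15, scipy 1.17.1 and R 4.3.3 were used.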

Additional observations from a re-analysis of the deposited data

Results flagged for a closer look

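Viral miRNA probes, which have no target in uninfected mice, were outside the comparisons, and some read above the threshold. Of 33 such probes, 4 were above background in P2 RPC and 2 in adult MG, and none in P8 MG or P11 MG. In P2 RPC they reached at most 64 raw counts, 1.05 times the threshold, and in adult MG at most 91, 1.27 times. Among the members, miR-142-3p in adult MG, at 73 raw counts, was below the highest viral probe of its lane, whereas miR-146a (125), miR-150 (145) and miR-142-5p (226) were above it.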

How the results depend on the processing

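Of the 13 calls, 12 held under all 6 background rules and 5 under all 8 scalings, and no called ratio changed sign. Members above background in P2 RPC numbered 3 at the mean plus 1 SD, 2 at the highest negative control and 4 at the mean of the negative controls, against 1. In P11 MG they numbered 3 at the mean plus 3 SD and above the authors' floor, and in adult MG 3 under these and both rules from viral probes, against 4. Calls of higher in P8 MG over P2 RPC were 2 on the geometric mean of housekeeping mRNAs, 2 on TMM factors and 2 at 3-fold, against 4. In adult MG over P2 RPC they were 0 on total counts, 1 on the geometric mean of housekeeping mRNAs, 4 on ligation controls, 4 at 1.5-fold and 1 at 3-fold, against 2. In P11 MG over P8 MG 1 was higher at 1.5-fold, against 0. Calls of lower in adult MG over P8 MG were 0 on the geometric mean of housekeeping mRNAs, 1 on their sum, 0 at 3-fold and 3, with miR-142-5p, on total counts, against 2, and in adult MG over P11 MG 1 on that geometric mean, 1 on ligation controls and 1 at 3-fold, against 2. Other than for the fold thresholds and background rules, whose construction sets the count, the cause was not tested. The housekeeping scalings include B2m, which was 5.18-fold to 8.20-fold higher in the glia than in P2 RPC when scaled as the miRNAs. Its part in the lost calls was not tested. The highest viral probe as background, and the other scalings of the immune and endothelial lists, came in once the values were known, that is, after seeing the data. No paired analysis was possible because each group was 1 library, and no replicate could be left out. Weak members are limited most in P8 MG, whose background was highest.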

Other observations

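B2m, the light chain of MHC class I and 1 of the 4 housekeeping mRNAs of the panel, was looked at after its values had been seen. It had 92 raw counts in P2 progenitors, 543 in P8 glia, 629 in P11 glia and 375 in adult glia. The P2 RPC count was not far above the threshold of 60.7 in its lane, so folds over it rest on a weak signal. Scaled as the miRNAs, B2m was 6.04-fold higher (4.83 to 7.62) in P8 MG and 8.20-fold higher (6.58 to 10.3) in P11 MG than in P2 RPC. The adult library was 1.58-fold lower (1.39 to 1.80) than P11 MG and 5.18-fold higher (4.11 to 6.58) than P2 RPC. Relative to Actb in the same lane it stood at 1.08%, 4.71%, 6.76% and 5.34% from P2 RPC to adult MG.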
